A study of Mus musculus with 18 samples.

Results

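Aminoacyl-tRNA synthetases are the enzymes that attach each amino acid to its transfer RNA, the step that makes amino acids usable for protein synthesis. Of the 20922 genes in the table, 37 encode such an enzyme. They were taken by symbol among protein-coding genes, and the minimum mean over the 18 libraries was 10 normalized counts. The family was chosen by its values in these data: the earlier ligation and genotype results had drawn notice to it and to Lars2. Every gene that matched by symbol met this minimum, and the lowest were Pars2 at 33.8 and Ears2 at 42.3. By the place where the enzyme works, 18 are cytosolic, 17 are mitochondrial, and 2 (Gars and Kars) make the enzyme of both places from 1 gene. Lars2, the mitochondrial leucyl-tRNA synthetase, was singled out with its values known, so it is described apart from the other 36 genes and without a test.

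The RNA came from the tibialis anterior, at the front of the shin, of mice in which the femoral artery had been tied on 1 side. This operation is a model of peripheral artery disease. There were 4 groups, all taken on day 36 after surgery. BKO ligated (4 libraries) and BKO intact (5 libraries) are the operated limb and the limb of the other side in mice with floxed Bmal1 alleles, labelled Bmal1 knockout. WT ligated (4 libraries) and WT intact (5 libraries) are the same limbs in mice labelled wildtype, which also carry floxed Bmal1. The ACTA-rtTA-TRE-Cre transgene directs the deletion to skeletal muscle after doxycycline by oral gavage, so cells of other types in the muscle are not its target. The labels write the Cre genotype as +/+ for controls and -/- for knockouts, the reverse of what a Cre deletion needs, so each direction between genotypes rests on the group names. The sources used here do not give strain, sex, age, time of day or whether controls had doxycycline. Nothing in the labels says that libraries of a group came from separate mice, and p-values then cover only spread between libraries, which may be technical.

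Cytosolic synthetases supply the ribosomes that translate nuclear genes. Several of them, with 3 scaffold proteins, form the multisynthetase complex. Mitochondrial synthetases are encoded in the nucleus and imported. They charge the transfer RNAs with which mitochondria translate their own few messenger RNAs, all for subunits of the respiratory chain and ATP synthase, on which muscle with much oxidative metabolism depends. Genes of many cytosolic synthetases are known targets of ATF4, a transcription factor whose own translation rises when amino acids are short. BMAL1 with CLOCK binds the E-box, a short DNA motif.

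Depth was 14.1 to 25.6 M reads per library (M, mega). The mitochondrial ribosomal RNA mt-Rnr2 took 40.9 to 55.5% of the reads in BKO ligated, 33.6 to 36.1% in BKO intact, 38.1 to 45.3% in WT ligated and 31.9 to 34.3% in WT intact libraries. It took over 50% in BKO ligated libraries 4 and 5, so the counts over the synthetases and the values of Lars2 that rest on these libraries are also given without them, an alternative chosen after seeing the data. Counts of the complex, the structural classes, the markers and the other lists were not recomputed in this way. All 4 myofibre markers (Acta1, Ckm, Myh4 and Tnnt3) were abundant, with sums of 719299 to 860885 normalized counts in BKO ligated, 880463 to 1096610 in BKO intact, 604225 to 724555 in WT ligated and 875280 to 1110020 in WT intact libraries. Arntl, the gene symbol of Bmal1, had 63.8 to 82.0 normalized counts in BKO ligated, 42.4 to 61.1 in BKO intact, 12.2 to 18.3 in WT ligated and 41.3 to 68.4 in WT intact libraries. The sources used here do not name the deleted exon, and the sum over all exons does not check the genotype labels.

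Per kilobase of the longest annotated coding transcript, the 14 lowest synthetases in mean level were all mitochondrial, while Lars2, Iars2 and Fars2 lay among the cytosolic and dual genes. Eprs, which charges both glutamate and proline, had the highest mean over the 18 libraries, at 570.5 normalized counts per kb, and Lars2 came next at 272. Kars, at 262, and Nars, at 234, followed. Among the mitochondrial genes other than Lars2, Iars2 was highest, between 95.0 and 112 per kb in the 4 group means, while Mars2 lay between 9.40 and 12.3. Summed per kb over the 18 cytosolic genes, libraries ranged from 2107 to 2414 in BKO ligated, 2623 to 2905 in BKO intact, 2107 to 2156 in WT ligated and 2679 to 2751 in WT intact muscle. The libraries of ligated muscle thus all lay below those of intact muscle in each genotype. The sum over the 16 mitochondrial genes other than Lars2 ran otherwise. It was 486 to 598 in BKO ligated, 602 to 681 in BKO intact, 495 to 552 in WT ligated and 453 to 511 in WT intact libraries, so BKO intact stood above every other group. In bulk muscle, fewer cells of a type and less RNA per cell cannot be told apart.

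The stretch around the ATF4 motif is shown for all 4 members in which it was found, all of them cytosolic. These genes were among the ones lower in ligated muscle, in both genotypes for Aars, Tars and Yars and in WT for Iars. A link between the motif and these changes was not tested. Promoters (250 bases before to 50 after the start site, from RefSeq on GRCm38.p6) were at hand for 26 of the 37 genes. The motif TGATGCAA, on either strand, was found in 4 of 10 cytosolic, 0 of 2 dual and 0 of 14 mitochondrial promoters, against 0.895% of all 32851 promoters of that length. Capitals mark the motif, each sequence reads along the gene's own strand, and TTGCATCA is the same motif on the other strand.
Aars: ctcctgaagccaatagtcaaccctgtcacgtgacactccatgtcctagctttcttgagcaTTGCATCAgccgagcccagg
Iars: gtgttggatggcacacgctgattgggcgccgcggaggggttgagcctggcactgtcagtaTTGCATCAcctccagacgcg
Tars: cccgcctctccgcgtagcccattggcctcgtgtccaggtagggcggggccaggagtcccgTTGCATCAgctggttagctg
Yars: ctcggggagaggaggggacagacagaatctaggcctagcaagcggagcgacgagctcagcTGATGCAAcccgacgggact
They lie at chr8:111033670-111033749 (plus strand), chr13:49682077-49682156 (plus), chr15:11399654-11399733 (minus) and chr4:129189846-129189925 (plus), in the order of the lines. With the sixth base free (TGATGNAA, held by 3.97% of all promoters), Gars was the only further member with a match. The E-box CACGTG was found in 4 of 10 cytosolic promoters (Aars, Farsb, Iars and Tars), 0 of 2 dual and 1 of 14 mitochondrial ones (Ears2), against 7.15% of all promoters. None of the E-box matches overlapped an ATF4 match. The letters are a description and say nothing of binding.

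Ligation asked how muscle below the tied artery differed from the muscle of the other limb. Most cytosolic synthetases were lower in ligated muscle within each genotype taken alone, led by Aars and Sars, while Wars was higher in WT and Vars in BKO. In BKO, 12 of 18 cytosolic genes were lower and 1 higher by limma, in a comparison where 47.2% of 12262 genes were called, 25.1% lower and 22.1% higher. In WT, 10 of 18 were lower and 1 higher, where 39.8% of genes were called, 21.1% lower and 18.7% higher. The median log2 fold change of the 18 was -0.36 in BKO and -0.34 in WT, beside -0.004 and -0.003 over all genes. Of the 12 and 10 genes lower, 9 were lower in both genotypes: Aars, Sars, Nars, Yars, Tars, Hars, Mars, Rars and Eprs. The share of all genes lower in both was not counted. The family was chosen with these contrasts known, so the overlap is a description.

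**Figure D1:**
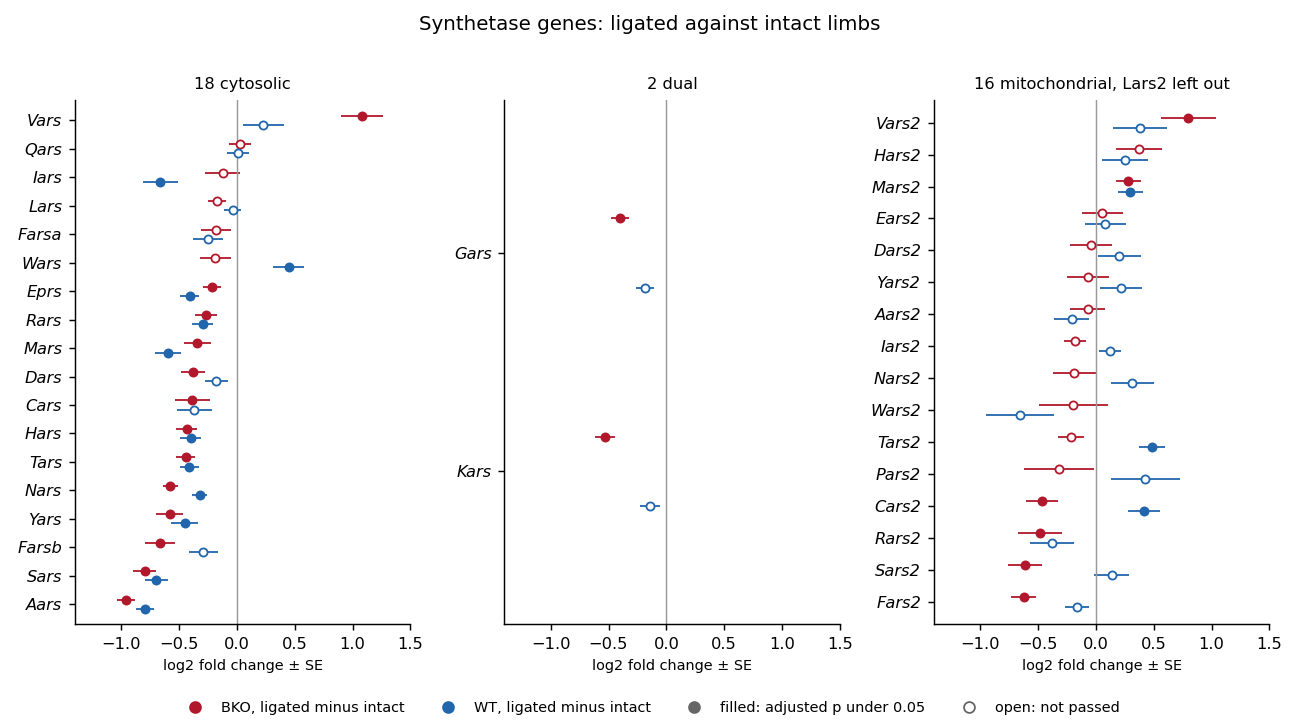
Log2 fold change of ligated against intact limbs with its standard error (horizontal axis) for each synthetase gene but Lars2, in BKO (red) and WT (blue). Filled points passed an adjusted p under 0.05; most cytosolic points lie left of 0 in both genotypes (medians -0.36 in BKO and -0.34 in WT), while the mitochondrial points spread to both sides.

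Aars, the alanyl-tRNA synthetase (ENSMUSG00000031960, chromosome 8, 111033144 to 111057664 on GRCm38), had 539.7, 536, 485 and 513 normalized counts in BKO ligated muscle, against 1059.8, 1069, 1042, 1016 and 855 in BKO intact muscle. It had 569, 485, 544 and 543 in WT ligated muscle, against 989.8, 933, 850.5, 897 and 978 in WT intact muscle. Every ligated library was thus below every intact one. The log2 fold change was -0.96 ± 0.08 in BKO (limma adjusted p = 9.69e-09) and -0.80 ± 0.08 in WT (limma adjusted p = 1.07e-07). An annotated neighbour on the same strand, Exosc6, shares 1326 exonic bases with Aars and has no row in the table, so its reads may stand among those of Aars.

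Sars, the seryl-tRNA synthetase (ENSMUSG00000068739, chromosome 3, 108424865 to 108445209), had 322, 255, 343 and 380.5 normalized counts in BKO ligated muscle, against 533, 529.9, 548, 628 and 568 in BKO intact muscle. In WT the values were 408, 399, 342 and 317 in ligated muscle, against 556, 593, 600.1, 587 and 619 in intact muscle. The groups did not overlap in either genotype. The change was -0.80 ± 0.10 in BKO (limma adjusted p = 2.75e-06) and -0.69 ± 0.10 in WT (limma adjusted p = 1.68e-05).

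Among the other named genes, Farsb, the beta chain of phenylalanyl-tRNA synthetase, was at -0.67 ± 0.13 in BKO (limma adjusted p = 0.000278), from 141 to 203 normalized counts in ligated and 253 to 335 in intact libraries. In WT it was at -0.29 ± 0.13 and did not pass (adjusted p = 0.0827). Farsa, the alpha chain of the same enzyme, passed in neither genotype, at -0.18 ± 0.13 in BKO and -0.25 ± 0.13 in WT. Yars, the tyrosyl-tRNA synthetase, changed by -0.58 ± 0.12 in BKO and -0.45 ± 0.12 in WT. Iars, the isoleucyl-tRNA synthetase, was at -0.12 ± 0.15 in BKO, where it did not pass, and changed by -0.66 ± 0.15 in WT. In WT, Mars, the methionyl-tRNA synthetase, changed by -0.60 ± 0.11 and Tars, the threonyl-tRNA synthetase, by -0.41 ± 0.08.

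The genes that ran the other way charge valine and tryptophan. Vars, the valyl-tRNA synthetase (chromosome 17, 35000987 to 35016322), had 334, 285, 363 and 223 normalized counts in BKO ligated muscle, against 110.2, 160.1, 145, 133 and 156 in BKO intact muscle. All 4 ligated libraries exceeded all 5 intact ones, and the change was 1.08 ± 0.18 (limma adjusted p = 5.84e-05). In WT, Vars had 201, 346, 184 and 236 in ligated muscle, against 203, 263, 214, 166 and 168 in intact muscle, and these groups overlapped. Wars, the tryptophanyl-tRNA synthetase, which is known to be induced by interferon gamma, had 195, 278, 204 and 198 normalized counts in WT ligated muscle, against 149.7, 187, 176, 162 and 124 in WT intact muscle. The groups did not overlap, and the change was 0.45 ± 0.13 (limma adjusted p = 0.0112). In BKO it ran from 153 to 214 in ligated and 177 to 223 in intact libraries. The call of Wars in WT ended without WT ligated library 4 (adjusted p = 0.0599). The difference between genotypes in the effect of ligation narrowly missed the threshold for both genes. It was 0.85 ± 0.25 for Vars (limma adjusted p = 0.0519) and -0.63 ± 0.19 for Wars (limma adjusted p = 0.0510).

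**Figure D2:**
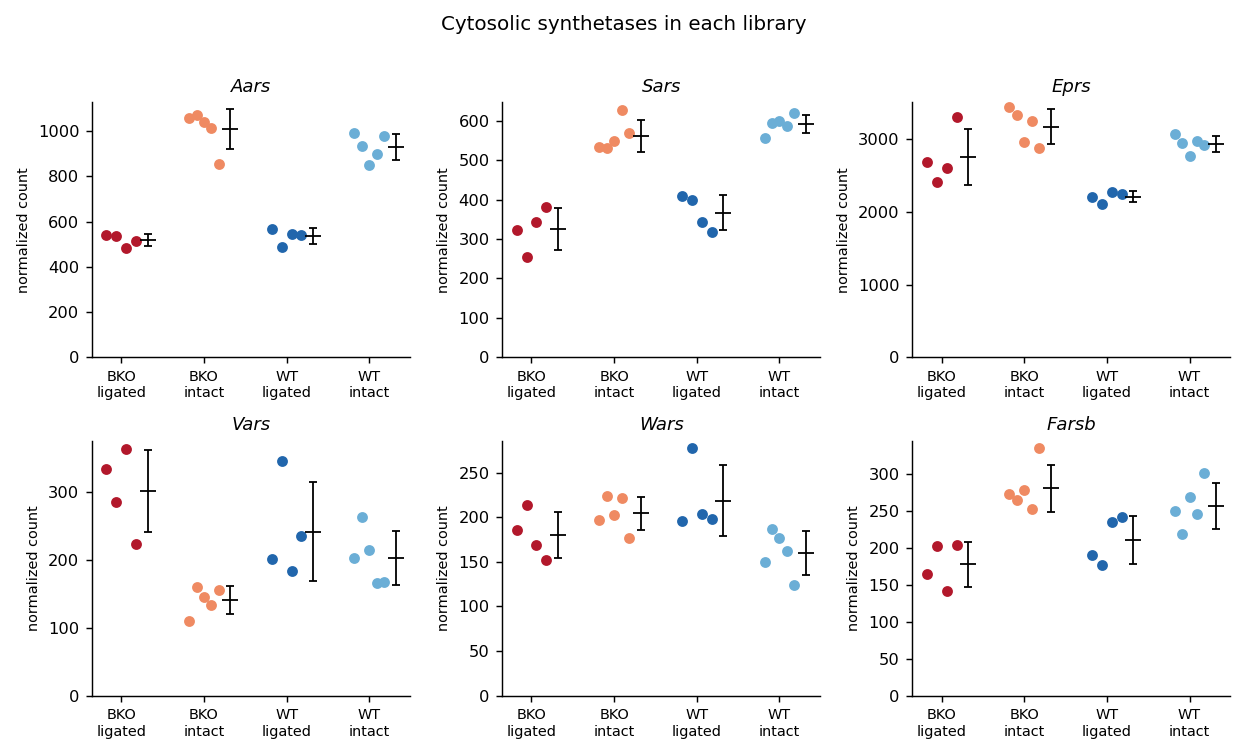
Normalized counts of 6 cytosolic synthetase genes in each library (points; vertical axis from 0), by group, with the group mean and SD (black). Aars and Sars are lower in every ligated library than in any intact library of the same genotype, while Vars in BKO and Wars in WT are higher in every ligated library.

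Enzymes inside and outside the multisynthetase complex are given side by side. All shares called in this paragraph stand against 47.2% of all genes with ligation in BKO and 39.8% in WT. Of the 8 enzymes of the complex (Dars, Eprs, Iars, Kars, Lars, Mars, Qars and Rars), 5 were lower with ligation in BKO and 4 in WT. These are 62.5% and 50% called. Of the 12 cytosolic and dual genes outside the complex, 9 were lower and 1 higher in BKO (83.3% called). In WT 6 were lower and 1 higher (58.3% called). Qars, the glutaminyl-tRNA synthetase, was at 0.03 ± 0.10 in BKO and 0.01 ± 0.10 in WT. Of the 3 scaffold genes, Aimp2 was lower in both genotypes. It averaged 395 ± 82.2 normalized counts in BKO ligated and 779 ± 48.4 in BKO intact muscle, and 439.8 ± 33.5 in WT ligated and 715 ± 97.2 in WT intact muscle (SD, n = 4 and 5). Aimp1 was lower in BKO at -0.23 ± 0.09 and did not pass in WT. That call of Aimp1 ended with edgeR and without BKO intact library 2, 3 or 4 or BKO ligated library 2 or 4 (limma adjusted p at most 0.114 over all settings tried). Both dual genes were lower with ligation in BKO, Kars at -0.53 ± 0.09 and Gars at -0.40 ± 0.08, while by limma 0 of 2 passed in WT (1 at an unadjusted p under 0.05; 0 by edgeR). By the structural classes of the enzymes, class II genes were 11 lower of 18 in BKO, and 5 lower and 1 higher in WT (61.1% and 33.3% called). Class I genes other than Lars2 were 6 lower and 3 higher of 17 in BKO, and 4 lower and 3 higher in WT. These are 52.9% and 41.2% called. The class I shares and the class II share in WT lie near those of all genes and are no result about the classes.

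Fewer of the 16 mitochondrial synthetases other than Lars2 passed with ligation than of all genes, 37.5% against 47.2% in BKO and 18.8% against 39.8% in WT, so these counts are no result about the group. In BKO, 4 of 16 were lower (Fars2, Sars2, Rars2 and Cars2) and 2 higher (Vars2 and Mars2), with a median of -0.18. In WT, 3 were higher (Tars2, Cars2 and Mars2), with a median of 0.21. By limma and by edgeR, 0 were lower in WT, and of the 4 genes at an unadjusted p under 0.05 by limma Wars2 was the only one below 0 (-0.66 ± 0.30, adjusted p = 0.0864). Fars2, the mitochondrial phenylalanyl-tRNA synthetase, was the largest fall in BKO, at 144, 125, 151 and 159.6 normalized counts in ligated, against 231, 197, 239, 232 and 219.6 in intact muscle (-0.63 ± 0.11, limma adjusted p = 8.07e-05). Sars2, for serine, had 75.0, 56.4, 56.2 and 64.7 in BKO ligated muscle, against 89.8, 109.6, 91.6, 102 and 89.9 in BKO intact muscle, again without overlap (-0.61 ± 0.15, limma adjusted p = 0.00211). Vars2, for valine, had 167, 117, 113 and 115 in BKO ligated muscle, against 70.2, 48.5, 120.1, 71.2 and 67.0 in BKO intact muscle. Its groups overlapped through BKO intact library 3, and the change was 0.80 ± 0.23 (limma adjusted p = 0.0083). Tars2, for threonine, had 153, 146, 145 and 133 in WT ligated muscle, against 99.4, 97.1, 111, 118 and 92.3 in WT intact muscle, with no overlap (0.48 ± 0.11, limma adjusted p = 0.00178).

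Mars2, for methionine, passed as higher in both genotypes, at 0.28 ± 0.11 in BKO and 0.30 ± 0.11 in WT. In BKO the call ended without BKO intact library 1 or 2 or BKO ligated library 4 or 5, and in WT without WT intact library 3 or 5 or WT ligated library 2, 4 or 6 (adjusted p up to 0.342 and 0.105 over all settings tried). Without BKO ligated libraries 4 and 5, 14 of the 36 genes passed with ligation in BKO, against 21 with them. Calls over all 12262 genes fell as well, from 5790 to 4050. Of the 14 genes, 9 cytosolic genes were lower and 1 higher, both dual genes were lower, and 1 mitochondrial gene was lower and 1 higher. Sars2 was then at -0.46 and no longer passed (adjusted p = 0.0626).

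Markers of other cells in the muscle were counted as well. All counts in this paragraph stand against 47.2% of all genes called with ligation in BKO and 39.8% in WT. All 5 adipocyte markers were higher in ligated muscle of both genotypes, with sums of 786 to 3132 normalized counts in BKO ligated, 22.2 to 98.5 in BKO intact, 2309.8 to 4586 in WT ligated and 42.4 to 156 in WT intact libraries. All 5 endothelial markers were higher as well, with sums of 3091 to 4081 in BKO ligated, 1703 to 2276 in BKO intact, 2851 to 3771 in WT ligated and 1569 to 1936 in WT intact libraries. Of 5 fibro-adipogenic progenitor markers, 3 were higher in each genotype, with sums of 4687 to 6975 in BKO ligated, 2485 to 3823 in BKO intact, 6851 to 7313 in WT ligated and 3713 to 4666 in WT intact libraries. Of the 4 myofibre markers, 2 were lower in BKO and 3 in WT. Of 5 macrophage markers, 1 was lower in BKO, and 2 were higher and 1 lower in WT (sums 156 to 282 in BKO ligated, 169 to 285 in BKO intact, 309 to 376 in WT ligated and 226 to 327 in WT intact libraries). Of 3 satellite cell markers, 2 were higher in BKO and 1 in WT (sums 158 to 198, 57.9 to 82.7, 108 to 131 and 77.1 to 113 in the same order of groups). Of 3 Schwann cell markers tested, 1 was lower in BKO and 1 higher in WT (sums over 4 genes 104 to 184, 152 to 248, 155 to 231 and 113 to 177). Of 3 blood markers, 2 were lower in BKO (sums 1120.4 to 1261, 1318 to 2455, 1251 to 1501 and 1113 to 1829). In BKO and WT, 60% and 60% of fibro-adipogenic progenitor, 50% and 75% of myofibre and 20% and 60% of macrophage markers were called. For satellite cell markers these shares were 66.7% and 33.3%, for Schwann cell markers 33.3% and 33.3%, and for blood markers 66.7% and 0%. With so few genes per list, counts other than those of adipocyte and endothelial markers are no result about a cell type. No marker was at 0 in all libraries of a group. The part of these cells in the synthetase results was not tested.

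The knockout in intact limbs asked how the genotypes differed without ligation. Cars2, Tars2, Sars2, Fars2 and Pars2, which all charge mitochondrial tRNA, were higher in BKO, Cars2 by 1.99-fold. Of the 36 genes 8 passed (22.2%), where 18.3% of all genes were called, 8.56% higher and 9.75% lower. The 2 shares lie near each other, so the count is no result about the family. Of the 16 mitochondrial genes other than Lars2, these 5 were higher and 14 of the 16 estimates were above 0, with a median of 0.25. Over all genes, 50.02% of estimates were above 0. The family was chosen with this contrast known, so these counts are a description. By limma and by edgeR 0 of the 16 were lower, and the 8 genes at an unadjusted p under 0.05 by limma were all above 0. Of the cytosolic genes, Lars was higher and Vars lower, and of the dual genes Kars was higher. The median of the 18 cytosolic genes was 0.10, and that of all genes 0.0002.

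**Figure D3:**
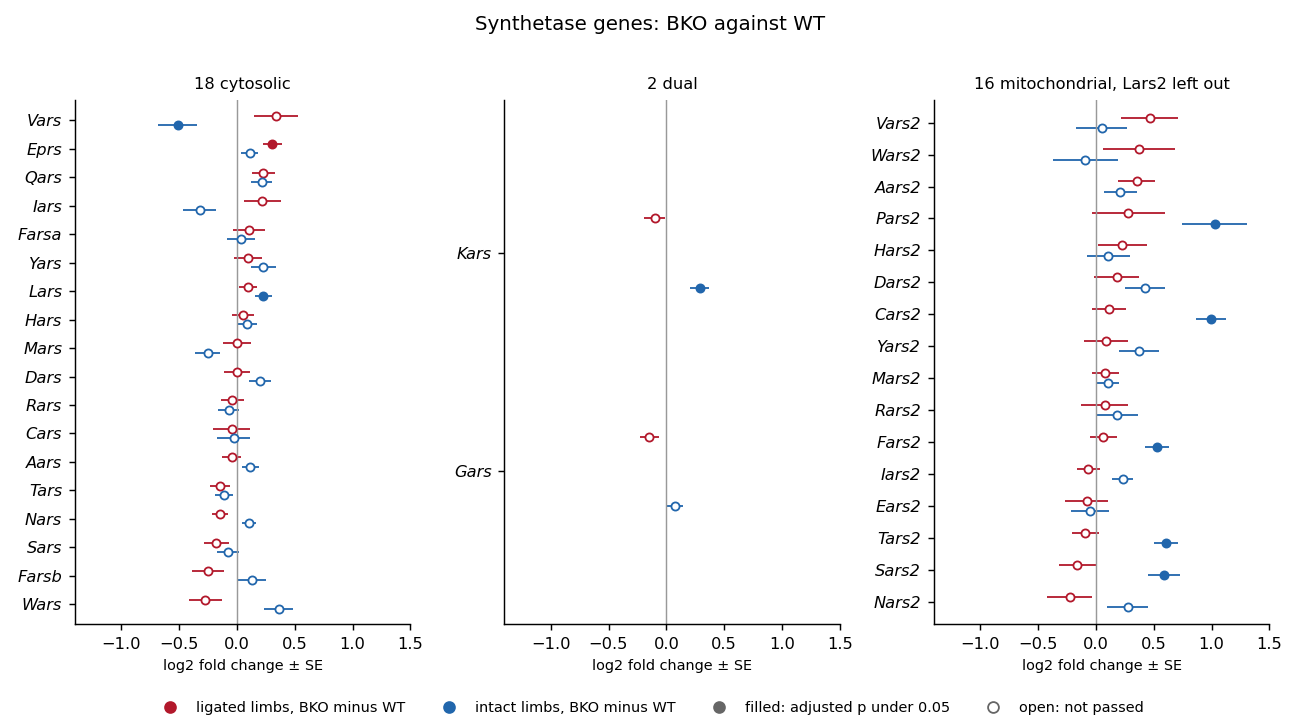
Log2 fold change of BKO against WT with its standard error (horizontal axis) for each synthetase gene but Lars2, in ligated limbs (red) and intact limbs (blue). Filled points passed an adjusted p under 0.05; in intact limbs 5 of 16 mitochondrial points passed, all right of 0, and in ligated limbs Eprs was the only gene of the 36 to pass.

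Cars2, the mitochondrial cysteinyl-tRNA synthetase (ENSMUSG00000056228, chromosome 8, 11513977 to 11550783), had 104, 82.2, 103, 99.6 and 86.5 normalized counts in BKO intact muscle, against 47.7, 40.3, 52.2, 54.9 and 42.1 in WT intact muscle. Every BKO library was above every WT library, and the change was 0.99 ± 0.13 (limma adjusted p = 1.46e-05). Its exons share 422 bases with Naxd on the opposite strand, and the strand setting of the counting is not given, so reads of the overlap may stand with either gene. Naxd was at 0.29 ± 0.11 in the same comparison and did not pass. With ligation Naxd was lower in both genotypes, at -0.54 ± 0.12 in BKO and -0.37 ± 0.12 in WT. The part of these reads in the values of Cars2 was not tested. The same limit on reads applies to other members with exons over a gene of the opposite strand, such as Fars2 with Nrn1 (501 bases) and Lyrm4 (115 bases), Farsb with Sgpp2 (248 bases), Vars2 with Gm20483 (465 bases) and Iars2 with Rab3gap2 (2034 bases).

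Pars2, for proline, had the lowest mean count of all members, with 53.3, 33.7, 54.1, 56.1 and 31.4 normalized counts in BKO intact muscle, against 24.5, 11.8, 13.8, 27.9 and 38.1 in WT intact muscle. The groups overlapped, and the change was 1.03 ± 0.28 (limma adjusted p = 0.0139). Tars2 had 155, 173, 147, 167 and 148 in BKO intact muscle, against 99.4, 97.1, 111, 118 and 92.3 in WT intact muscle, with no overlap (0.61 ± 0.11, limma adjusted p = 0.000327). Sars2 changed by 0.59 ± 0.14, Fars2 by 0.53 ± 0.10 and Kars, for lysine, by 0.29 ± 0.08, and none of these overlapped. Vars had 110.2 to 160.1 in BKO intact and 166 to 263 in WT intact libraries, a change of -0.51 ± 0.17 (limma adjusted p = 0.0399). That call ended without WT intact library 2, 3 or 4 or any of BKO intact libraries 1, 3 and 4 (limma adjusted p at most 0.122 over all settings tried), and the call of Kars without WT intact library 4 (up to 0.063). The count was 5 without WT intact library 4. Of the marker lists, 1 gene each of the adipocyte, fibro-adipogenic progenitor and satellite cell markers was lower and 1 Schwann cell marker higher in this comparison. These markers are 20%, 20%, 33.3% and 33.3% of those tested, in that order, against 18.3% of all genes. Their part was not tested.

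In ligated limbs the genotypes differed at 1 of the 36 genes, with or without BKO ligated libraries 4 and 5. With them, 8.84% of all genes were called, 4.16% higher and 4.68% lower. Calls over all 12262 genes numbered 1084 with them and 616 without. Eprs (ENSMUSG00000026615, chromosome 1, 185363044 to 185428360) had 2688, 2410.0, 2599 and 3301 normalized counts in BKO ligated muscle, against 2203, 2113, 2275 and 2247 in WT ligated muscle. The groups did not overlap, and the change was 0.31 ± 0.08 (limma adjusted p = 0.0229). The call ended without WT ligated library 2 or 4 or BKO ligated library 6, and then 0 genes passed (adjusted p up to 0.0981 over all settings tried). Of the 16 mitochondrial genes, 0 passed by limma and by edgeR, with 1 at an unadjusted p under 0.05 by limma. Among the markers, 1 adipocyte, 1 macrophage and 2 fibro-adipogenic progenitor markers were lower in BKO, and 1 myofibre and 1 satellite cell marker higher. These markers are 20%, 20%, 40%, 25% and 33.3% of those tested, in that order, against 8.84% of all genes. Their part was not tested.

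**Figure D4:**
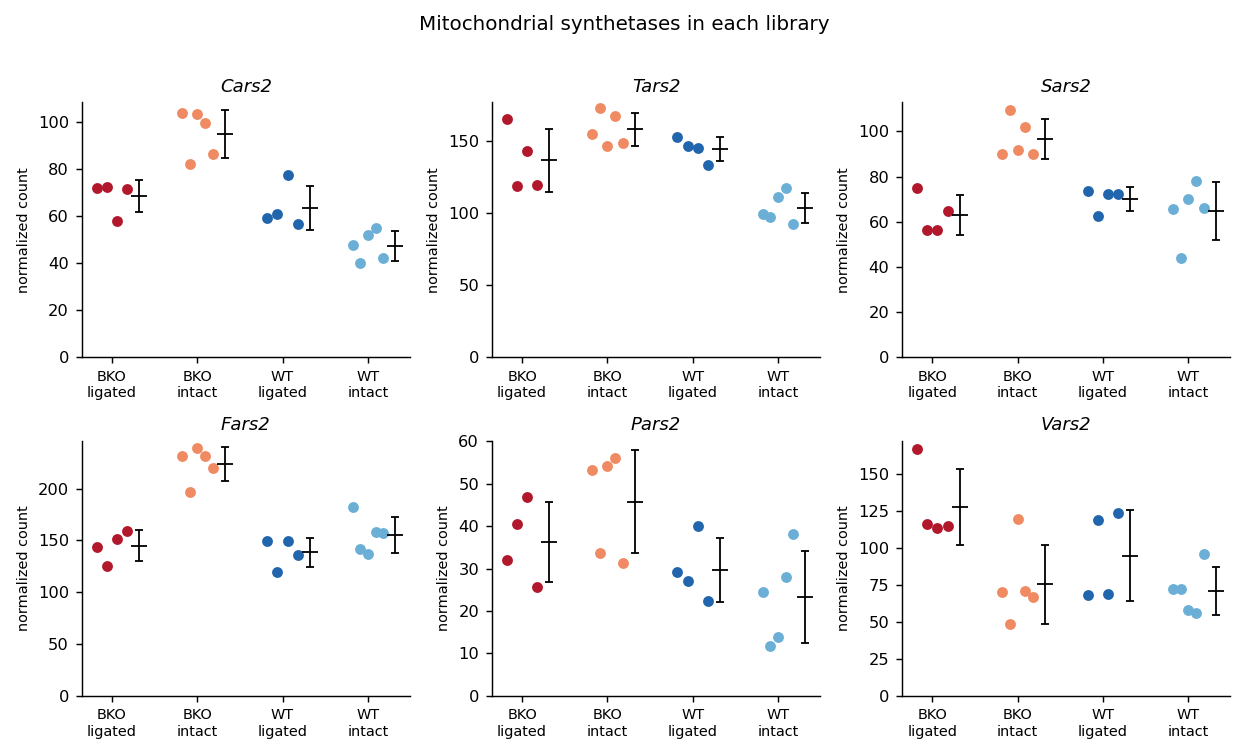
Normalized counts of 6 mitochondrial synthetase genes in each library (points; vertical axis from 0), by group, with the group mean and SD (black). For Cars2, Tars2, Sars2 and Fars2 the BKO intact libraries all lie above the WT intact libraries, whereas the ligated groups of the 2 genotypes overlap.

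The interaction, the effect of ligation in BKO minus that in WT, asked whether the genotypes differed in their response. It shares its libraries with the comparisons above. Of the 36 genes 3 passed (8.33%), where 6.01% of all genes were called, 3.04% higher and 2.97% lower. The 2 shares lie near each other, so the count is no result about the family. All 3 genes are mitochondrial and lower. Cars2 was at -0.88 ± 0.19 (limma adjusted p = 0.0129). Ligated muscle had less Cars2 than intact muscle in BKO (-0.47 ± 0.14) and more in WT (0.41 ± 0.14), and the genotypes overlapped once ligated, with 72.0, 72.4, 58.2 and 71.8 normalized counts in BKO ligated and 59.1, 61.0, 77.5 and 56.8 in WT ligated muscle. Tars2 was at -0.70 ± 0.16 (limma adjusted p = 0.0139), and the effect of ligation on it in BKO was -0.22 ± 0.11, which did not pass. Sars2 was at -0.75 ± 0.21 (limma adjusted p = 0.0394). In WT it had 73.7, 62.4, 72.3 and 72.5 normalized counts in ligated muscle, against 65.8, 43.8, 70.0, 78.0 and 66.2 in intact muscle, and these groups overlapped. By limma and by edgeR, 0 of 18 cytosolic genes passed, with 4 at an unadjusted p under 0.05 by limma. Without BKO ligated libraries 4 and 5, 0 of the 36 genes passed, with Cars2 at -0.81, Tars2 at -0.65 and Sars2 at -0.60. Calls over all 12262 genes fell as well, from 737 to 269. The call of Sars2 also ended without WT intact library 3, WT ligated library 2, 5 or 6, BKO intact library 2, 3 or 4, or BKO ligated library 4 or 5 alone. The call of Cars2 with ligation in WT, from which its interaction draws, ended without WT intact library 3 or WT ligated library 5 (adjusted p up to 0.0918 over all settings tried). In the interaction, 1 fibro-adipogenic progenitor and 1 Schwann cell marker were lower and 1 satellite cell marker higher, and their part was not tested. These markers are 20%, 33.3% and 33.3% of those tested, in that order, against 6.01% of all genes.

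Lars2 (ENSMUSG00000035202, chromosome 9, 123366927 to 123462666) was high in BKO ligated and WT intact muscle and low in BKO intact muscle. It had 1248, 2193, 857 and 1862 normalized counts in BKO ligated muscle, against 736, 296, 648, 257 and 151 in BKO intact muscle. In WT it had 610.0, 1269, 846 and 809 in ligated muscle, against 1423, 1563, 1064, 1252 and 2009 in intact muscle. The BKO intact libraries were all below the BKO ligated and the WT intact ones, and in WT the ligated and intact groups overlapped. The log2 difference was 2.03 ± 0.36 for ligation in BKO, -0.74 ± 0.36 for ligation in WT, -2.01 ± 0.34 for BKO against WT in intact limbs and 0.76 ± 0.38 in ligated limbs. The interaction was 2.77 ± 0.51. Without BKO ligated libraries 4 and 5, ligation in BKO gave 2.11 and the interaction 2.85. These values are a description, and no test is given for them.

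Its values are set beside those of the other mitochondrial synthetases. Its group means were 396 normalized counts per kb in BKO ligated, 107 in BKO intact, 227 in WT ligated and 376 in WT intact muscle, while the highest of the other 16 reached 112. Its coefficient of variation within a group was 39.0% in BKO ligated, 61.8% in BKO intact, 31.4% in WT ligated and 24.5% in WT intact muscle, beside medians of 16.1%, 14.8%, 19.2% and 17.5% over the other 16. Pars2 in WT intact muscle and Vars2 and Wars2 in WT ligated muscle varied more than it. In intact limbs its difference between BKO and WT was negative, whereas 14 of the other 16 estimates were positive. Across all 18 libraries, Pearson's r of Lars2 with each of the 16 on the log2 scale ran from -0.75 to 0.42 and was below 0 for 12. After each group's mean was taken off, it ran from -0.45 to 0.45 and was below 0 for 8.

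The 5 genes whose log2 values were most like those of Lars2 over the 18 libraries were Cpt1c (r = 0.84), Penk (r = 0.83), Gm22748 (r = 0.83), Rnf216 (r = 0.83) and Gm16576 (r = 0.82). The libraries fall into 4 groups, so differences between groups enter these values. After each group's mean was taken off, they were 0.52, 0.67, 0.73, 0.48 and 0.68. Gm42418, named after its values were seen, was next over all libraries (r = 0.79) and had the highest value of all 12262 genes within groups (r = 0.82). RefSeq gives Gm42418 as a synonym of Rn18s-rs5, a pseudogene on chromosome 17 named for 18S ribosomal RNA. It had 7369.7 to 11579 normalized counts in BKO ligated, 1421 to 4621 in BKO intact, 3532 to 7009.6 in WT ligated and 3066 to 5083 in WT intact libraries. BKO ligated libraries were above all others for Gm42418. Lars2 stood at 10.5 to 18.9 per 100 normalized counts of Gm42418 in BKO ligated, 10.5 to 26.4 in BKO intact, 16.6 to 18.1 in WT ligated and 32.9 to 40.8 in WT intact libraries.

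The mitochondrial ribosomal RNAs moved less closely with Lars2. In M normalized counts, mt-Rnr2 had 8.37, 12.8, 14.5 and 7.36 in BKO ligated, 5.98, 6.62, 6.65, 7.10 and 6.80 in BKO intact, 6.17, 8.65, 6.27 and 7.27 in WT ligated and 6.04, 7.12, 6.05, 5.96 and 6.63 in WT intact libraries. Its r with Lars2 was 0.23 over the 18 libraries and -0.08 within groups, and that of mt-Rnr1 was 0.18 and -0.20. In M normalized counts, mt-Rnr1 had 1.32, 1.88, 2.26 and 1.06 in BKO ligated, 1.02, 1.10, 1.14, 1.17 and 1.25 in BKO intact, 0.871, 1.19, 0.889 and 1.03 in WT ligated and 1.12, 1.26, 1.17, 1.11 and 1.18 in WT intact libraries. Both were highest in BKO ligated libraries 4 and 5. In BKO intact muscle mt-Rnr2 ranged 1.19-fold between libraries while Lars2 ranged 4.88-fold. The main transcript, Lars2-201, ends in a 3′ UTR of 986 bases (chromosome 9, 123461679 to 123462664). Within it, 97 bases at 94.8% identity and 50 bases at 96.0% are shared with the gene AA474408, and 72 bases at 98.6% with Gm15564. Both partners were scarce, with means of 9.72 and 2.90 normalized counts. No alignment with Gm42418, mt-Rnr1 or mt-Rnr2 was found below an e-value of 1e-8. Only the annotated transcripts of GENCODE M21 were searched, so the search does not cover ribosomal RNA sequence outside that set. The part of shared sequence, ribosomal RNA content and cell make-up in the values of Lars2 was not tested.

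**Figure D5:**
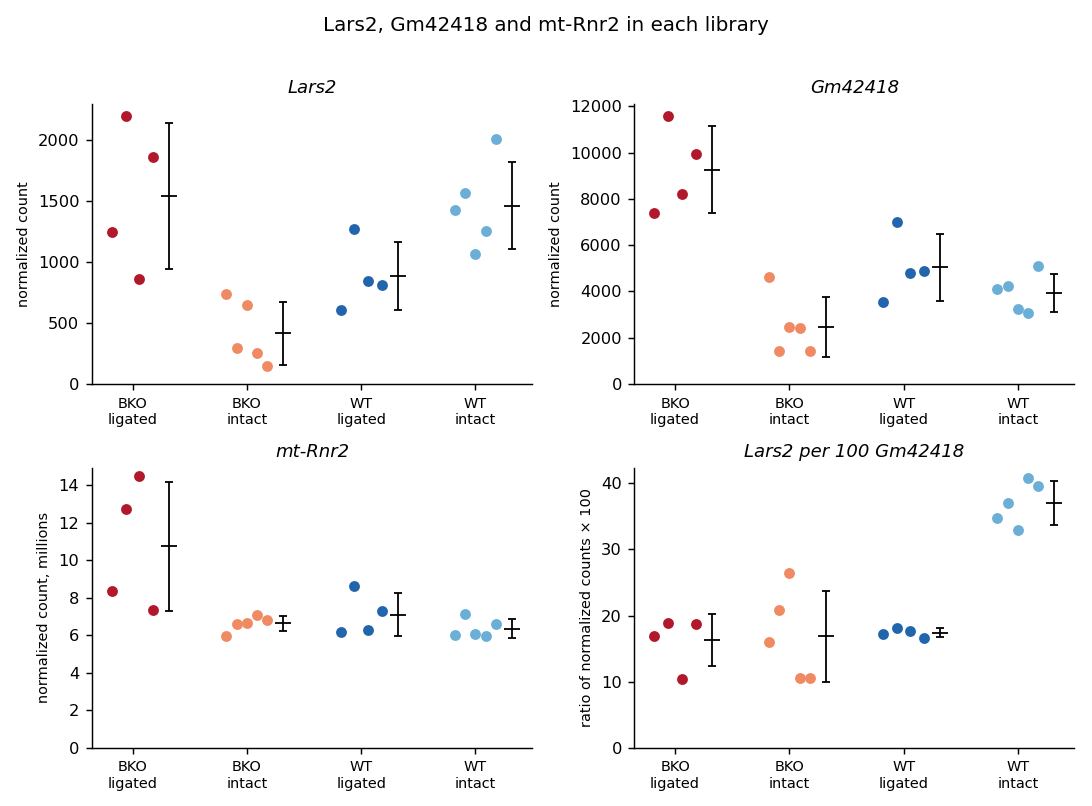
Normalized counts of Lars2, Gm42418 and mt-Rnr2 (in M) and the ratio of Lars2 to Gm42418 in each library (points; vertical axes from 0), by group, with the group mean and SD (black). The 5 BKO intact libraries have the lowest Lars2 as a group, from 151 to 736; the ratio is 32.9 to 40.8 in WT intact libraries and at most 26.4 in any other.

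ATF4 is the centre of the amino acid response. Of 24 tested genes of that list, 7 were lower and 3 higher with ligation in BKO (41.7% called, against 47.2% of all genes), and 6 lower and 6 higher in WT (50% called, against 39.8%). These shares lie near those of all genes and are no result about the list. Atf4 itself was lower, at 541 ± 68.6 normalized counts in BKO ligated and 938 ± 92.7 in BKO intact muscle (-0.80 ± 0.10; SD, n = 4 and 5). In WT it averaged 637 ± 86.8 in ligated and 1036 ± 81.8 in intact muscle (-0.71 ± 0.10; SD, n = 4 and 5). Psph, which makes serine from phosphoserine, was lower in both genotypes, at -0.88 ± 0.15 in BKO and -0.83 ± 0.15 in WT. The serine synthesis enzyme Phgdh was higher in both, at 2.21 ± 0.51 in BKO and 2.95 ± 0.51 in WT, from low levels. Mthfd2, the mitochondrial folate enzyme, was lower with ligation in BKO (-1.83 ± 0.33) and lower in BKO than in WT ligated muscle (-1.30 ± 0.35), with an interaction of -1.92 ± 0.47. The call in ligated limbs ended without WT ligated library 2, 4 or 5 or BKO ligated library 2 or 5, and without BKO ligated libraries 4 and 5 together (limma adjusted p at most 0.0677 over all settings tried). Of the 24, 1 was higher and 1 lower in BKO intact against WT intact muscle, 1 higher and 2 lower in ligated limbs, and 1 higher and 1 lower in the interaction. The shares called were 8.33%, 12.5% and 8.33%, against 18.3%, 8.84% and 6.01% of all genes. Of 8 genes of the eIF2 kinases, their sensors and phosphatase subunits, 3 were higher and 2 lower with ligation in BKO, and 1 higher and 2 lower in WT (62.5% and 37.5% called). The heme-regulated kinase gene Eif2ak1 was lower in both, at -0.57 ± 0.08 and -0.59 ± 0.08.

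Mitochondria have no glutaminyl-tRNA synthetase and make that charged tRNA with an amidotransferase, of which Gatb and Gatc are subunits. Gatc was lower with ligation, at -0.74 ± 0.09 in BKO and -0.58 ± 0.09 in WT. Gatb was lower with ligation in BKO (-0.81 ± 0.26) and higher in BKO intact than WT intact muscle (0.79 ± 0.25). The intact-limb call of Gatb ended without WT intact library 3, 4 or 5 or BKO intact library 2, 3 or 4 (limma adjusted p at most 0.0874), and its ligation call without BKO ligated library 4 (limma adjusted p = 0.0777). Tufm, the mitochondrial elongation factor that carries charged tRNA to the ribosome, averaged 798 ± 45.6 normalized counts in BKO intact and 547 ± 54.7 in WT intact muscle (0.55 ± 0.08; SD, n = 5 each). In WT it was higher with ligation by 0.30 ± 0.09. Gfm1, the mitochondrial elongation factor that moves the ribosome along, was lower with ligation (-0.72 ± 0.09 in BKO and -0.49 ± 0.09 in WT) and higher in BKO intact than WT intact muscle (0.36 ± 0.08). Of 9 mitochondrial translation factors tested, 3 were higher in BKO intact muscle, 4 were lower with ligation in BKO, and 3 lower and 1 higher in WT. The shares called were 33.3% in intact limbs, against 18.3% of all genes, and 44.4% with ligation in each genotype, against 47.2% in BKO and 39.8% in WT. Of 11 genes of mitochondrial tRNA processing, 2 were higher and 2 lower with ligation in BKO and 3 lower in WT, or 36.4% and 27.3% called, below the shares of all genes. One of these, Hsd17b10, a subunit of mitochondrial RNase P, was at -0.59 ± 0.10 with ligation in BKO and 0.37 ± 0.09 in BKO intact against WT intact muscle. Of the 13 mitochondrially encoded messenger RNAs, 7 were lower and 3 higher with ligation in BKO, 9 lower and 1 higher in WT, 5 lower in BKO intact muscle, and 5 higher in the interaction. With ligation 76.9% were called in each genotype, against 47.2% of all genes in BKO and 39.8% in WT. In intact limbs and in the interaction 38.5% were called, against 18.3% and 6.01% of all genes. One of those called higher in both genotypes, mt-Co2, named after its values were seen, is listed at 0 in all WT intact libraries, so its change has no usable size.

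The counts of the remaining lists are to be read against the 47.2% of all genes called with ligation in BKO and 39.8% in WT. Of 9 synthetase-related genes, 5 were lower with ligation in BKO (55.6% called), and 1 was higher and 1 lower in WT (22.2% called). Ptrhd1 was lower in both, at -0.97 ± 0.17 in BKO and -0.69 ± 0.17 in WT. Of 7 cytosolic elongation factor genes, 6 were lower and 1 higher with ligation in BKO (100% called), and 3 lower and 1 higher in WT (57.1% called). The 1 higher was Eef1a1, the elongation factor form of most other tissues, at 0.95 ± 0.08 in BKO and 1.04 ± 0.08 in WT, while Eef1a2, the form of adult muscle, was at -0.22 ± 0.07 and -0.38 ± 0.07. Of 7 interferon-inducible genes tested beside Wars, 1 was higher with ligation in BKO (Irf7, 1.01 ± 0.31) and 2 in WT (Irf7, 1.55 ± 0.31, and Gbp2, 0.98 ± 0.24), or 14.3% and 28.6% called. The call of Irf7 in BKO ended without BKO ligated libraries 4 and 5 (limma adjusted p = 0.11).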

How the data were processed

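RNA of 18 tibialis anterior libraries, prepared, per the labels' protocols, as stranded total RNA libraries (TruSeq), was read as normalized counts. Per the submitters' processing notes, the authors used Trimmomatic 0.33, STAR 2.5.2, RSEM 1.3.3, DESeq2 and the mm10 build. For annotation and strand setting, the sources used here give nothing. The deposited signal values are gene counts divided by 1 size factor per library: in every library 100% of values were whole multiples of 1 step (tolerance 0.001), and the recovered depth was 14.1 to 25.6 M reads. The unit is thus a normalized count, so the main test was limma, with the count test as an alternative.

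Genes with a mean of at least 10 (12262 of 20922) were fitted as log2(normalized count + 1), 1 mean for each of 4 groups, with limma 3.58.1 in R 4.3.3 (trended variances). P-values were adjusted by Benjamini-Hochberg over all 12262 genes, and calls were made at 0.05. Folds are on this log2 scale, which understates those of low genes, and are given ± SE. Group means are given ± SD. The fit and the test were checked on simulated data. Alternatives were other pseudocounts, filters and scalings, edgeR 4.0.16 on the recovered reads, fits of only the groups compared, blocks, and leaving out libraries.

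Members and gene lists were chosen with earlier results of these data known, and the choice of members used the ligation and genotype contrasts tested here, so their counts and p-values are a description and no independent support. Named genes were, beside Lars2, up to 6 called members with the largest rise and 6 with the largest fall in each comparison (the first 2 of each by library), up to 4 of each other list with the smallest p in a comparison, the members nearest the minimum, the 5 genes most like Lars2, Arntl, mt-Rnr1 and mt-Rnr2. Members may also be named by class. Farsa, Iars2, Wars2, Naxd and Gm42418 were named after their values were seen. Levels per kb use the longest coding transcript of GENCODE M21, and shared sequence was searched with blastn 2.17.0. By exonic overlap, 14 of the 37 genes share exons with a gene on the other strand. No pair of replicates agreed within sampling noise: chi-square over its degrees of freedom was 7.35 to 138.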

Additional observations from a re-analysis of the deposited data

Results flagged for a closer look

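In 5 of 48 groups checked (12 genes in 4 groups) 1 library stood apart from the rest of its group, where chance gives about 1 in 20. Aars was lowest in BKO intact library 5, at 855 normalized counts. Cars2 was lowest in BKO ligated library 5, at 58.2. Sars2 was lowest in WT ligated library 4, at 62.4. Vars2 was highest in BKO ligated library 2, at 167, and Wars was highest in WT ligated library 4, at 278.

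The effect of ligation differed between BKO and WT, on the log2 scale, by -0.88 for Cars2, -0.70 for Tars2 and -0.75 for Sars2, each past the threshold by limma. For Lars2 the difference was 2.77. Lars2 was singled out with its values known, so this difference was not tested.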

How the results depend on the processing

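Of the 36 synthetases other than Lars2, 21 passed with ligation in BKO and 14 in WT, 8 for BKO against WT in intact limbs, 1 in ligated limbs and 3 in the interaction. Leaving out 1 library at a time gave 16 to 21, 12 to 15, 5 to 10, 0 to 1 and 2 to 5 in the same order. In ligated limbs, 0 passed when only the groups compared were fitted. The interaction gave 5 with TMM scaling and 5 with the replicate block by mouse. It gave 0 without the 2 BKO ligated libraries of most mt-Rnr2, where calls over all genes fell from 737 to 269. It gave 5 without WT intact library 2, WT ligated library 4 or BKO ligated library 6. Leaving out libraries leaves fewer samples, yet the count rose in some of these settings and fell in others. The cause was not tested.

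The replicate block by number gave 5 for BKO against WT in intact limbs, where the calls of Kars, Vars and Pars2 were among those lost. It gave 17 and 15 with ligation in BKO and WT and 4 in the interaction. Deviations of same-numbered libraries correlated between -0.0638 and 0.0478 for the 2 limbs of a genotype. For the same limb of the 2 genotypes they correlated between -0.0551 and 0.121. The numbers were thus not taken to pair libraries. Ligated and intact libraries may still come from the 2 limbs of the same mice, which the main fit did not use. Over 125 results of single genes other than Lars2 and 28 settings, no direction reversed, 3270 values kept their call and 219 missed the threshold. These results include genes of the other lists. All had passed in the main fit, so they could keep or lose a call but not gain one. Leaving out a library of neither group compared leaves the estimate unchanged, and such settings are counted too. Depth limits the lowest genes most, such as Pars2.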
